A study of Danio rerio with 4 samples.

Results

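The coagulation genes described here are 9 genes of the clotting system: the prothrombin gene f2, the fibrinogen chain genes fga, FGB and FGG, the tissue factor genes f3a and f3b, the von Willebrand factor gene vwf, and the factor XIII A genes F13A1 and f13a1b. They were chosen by symbol, with earlier results of these data known, and make up 9 of the 32520 gene IDs in the count tables. Symbols are printed as the name table gives them. That table gives F13A1 to 2 IDs, and the one taken as f13a1a.1 is ENSDARG00000045453. The name table does not say which of the 2 IDs is f13a1a.1.

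RNA was sequenced from hearts of Ekkwill zebrafish in 4 libraries, with 1 library in each group. The groups were LEN mutant hearts (LEN[delta]/[delta]) 3 days after amputation (3 dpa), wild-type hearts (LEN+/+) at 3 dpa, LEN mutant uninjured hearts and wild-type uninjured hearts. LEN, the deleted element, is a regulatory DNA element of the leptin b gene that acts in regeneration, and its loss is given as a genotype of the whole fish. The number of hearts per library is not given. With 1 library per group, no difference below has a replicate check, and no p-value is given.

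Clotting starts when tissue factor on cells outside the bloodstream meets plasma clotting proteases, which activate prothrombin to thrombin. Thrombin cuts fibrinogen, built from the 3 chains, into fibrin, and factor XIII A crosslinks the fibrin strands. Von Willebrand factor, made by endothelial cells, tethers thrombocytes, the nucleated fish counterparts of platelets, to damaged vessels. Fibrinogen and prothrombin are made mainly by the liver, while tissue factor, factor XIII A and von Willebrand factor are made by cells that a heart contains. After ventricular amputation in zebrafish a fibrin clot seals the wound before muscle regrows.

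The libraries held 31618442 to 35026983 counts. Levels are CPM, counts scaled to library size by TMM factors, with Wilson 95% intervals, and log2 ratios are between 2 libraries, with a prior count of 2 and an exact 95% counting interval. These intervals cover counting error only and compare libraries, not conditions. Genes whose log2 ratio was 1 or more in size, with an interval clear of equal abundance, are described as called. The cardiomyocyte marker list was at 44303, 44395, 102180 and 92329 summed CPM in the mutant 3 dpa, wild-type 3 dpa, mutant uninjured and wild-type uninjured libraries. The wild-type uninjured library stood apart in its levels of liver marker genes. Of 21 liver marker genes, 18 were at least 10-fold above their level in every other library there. The fibrinogen and prothrombin genes are therefore given with and without that library.

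All 9 genes passed the filter of 1 CPM in at least 1 library. The 4 liver-made genes f2, fga, FGB and FGG passed only through the wild-type uninjured library, where they are high. In LEN mutant hearts, f13a1b was called higher and F13A1 lower at 3 dpa, and the other 7 were not called. Over all 16509 tested genes, 20.3% were called in that comparison, 14.7% higher and 5.62% lower. In wild-type hearts, f13a1b was called higher, and F13A1, f2, fga, FGB and FGG were called lower, where 20.0% of all tested genes were called, 13.2% higher and 6.76% lower. Between mutant and wild-type uninjured hearts, the 4 liver-made genes were called lower, where 8.01% of all tested genes were called, 3.92% higher and 4.09% lower. Between mutant and wild-type hearts at 3 dpa, 0 of the 9 genes were called, where 3.00% of all tested genes were, 2.24% higher and 0.769% lower. Set against each other, with wild type subtracted from the mutant, the injury ratios differed by enough to be called for the same 4 liver-made genes, all higher, where 5.84% of all tested genes were called, 4.36% higher and 1.48% lower. The 9 genes were picked with these comparisons known, so the shares are a description.

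**Figure D1:**
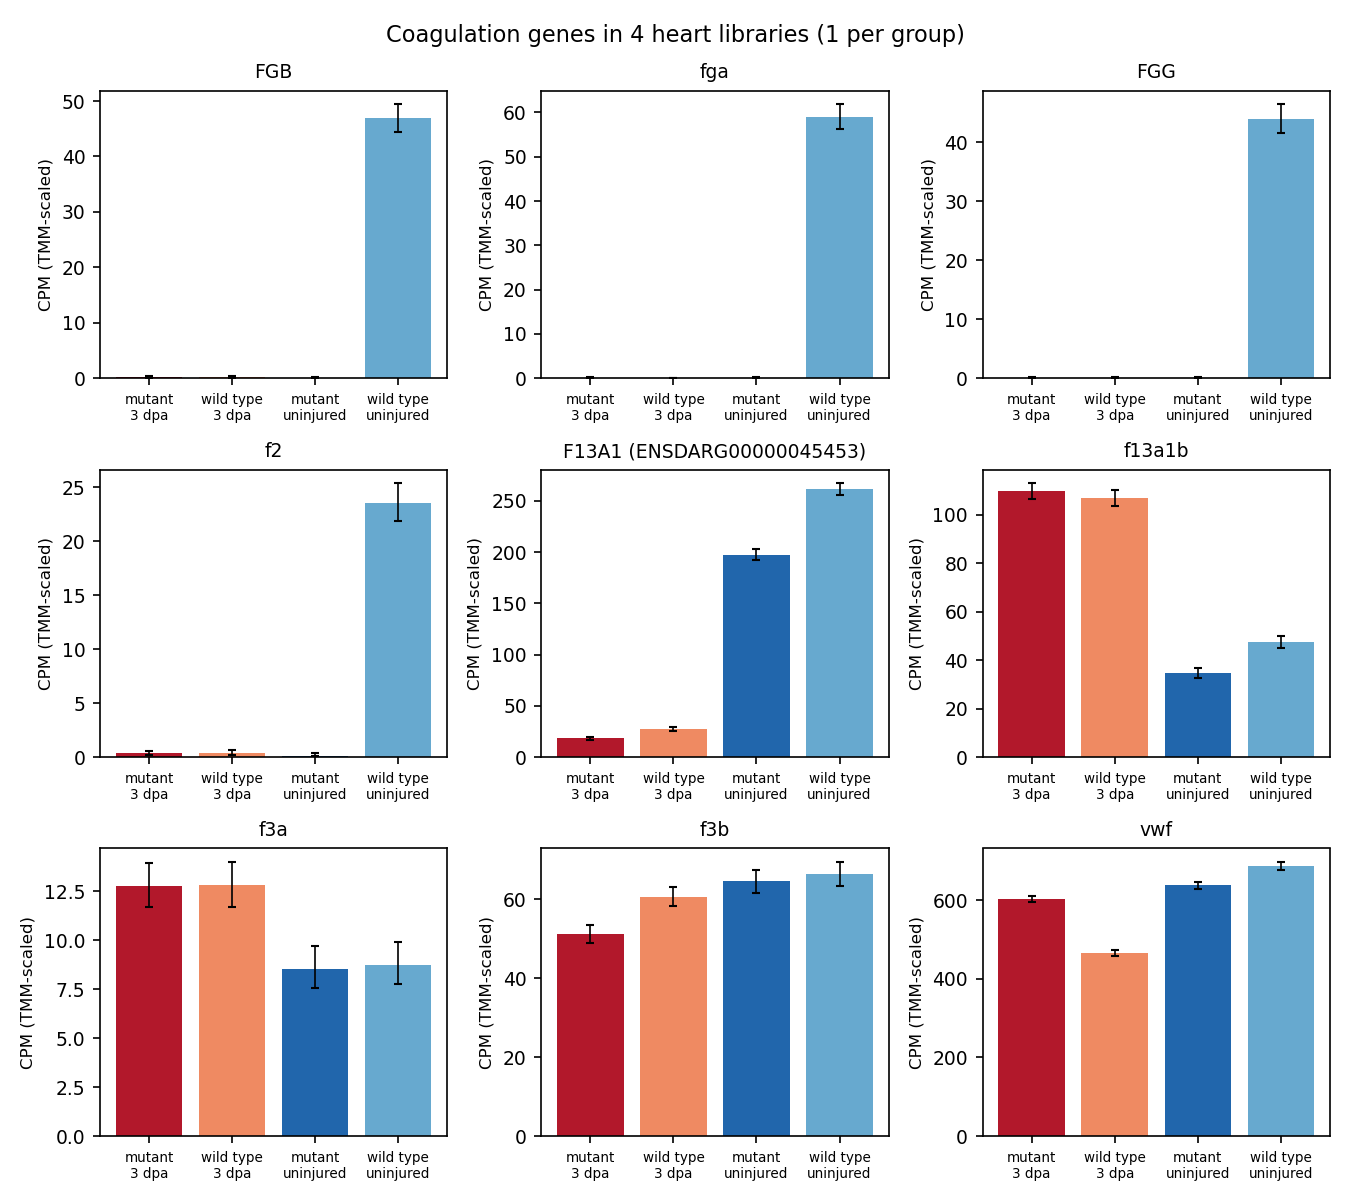
Level of each of the 9 genes (TMM-scaled CPM, linear axis from 0) in the 4 libraries, 1 bar per library with its Wilson 95% interval. The bars of FGB, fga, FGG and f2 stand above 1 CPM only in the wild-type uninjured library, F13A1 is low and f13a1b high in both 3 dpa libraries, and f3a, f3b and vwf vary less.

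The factor XIII A genes moved in opposite directions with injury in both genotypes. F13A1 (ENSDARG00000045453) had 710 and 1045 counts in the mutant and wild type at 3 dpa, and 5665 and 7516 counts in the mutant and wild type uninjured. In CPM these were 18.3 (17.0 to 19.7) and 27.3 (25.7 to 29.0) at 3 dpa in mutant and wild type, and 198 (193 to 203) and 261 (255 to 267) in the uninjured libraries of mutant and wild type. Both 3 dpa libraries lay below both uninjured ones, and none of the 4 intervals overlapped. F13A1 was 10.8-fold lower at 3 dpa in the mutant, a log2 ratio of -3.43 (-3.55 to -3.32), and 9.59-fold lower in wild type, a log2 ratio of -3.26 (-3.36 to -3.17). The difference of these log2 ratios, mutant minus wild type, was -0.17 (-0.32 to -0.03) and was not called. In bulk tissue, fewer cells of a type and less RNA per cell cannot be told apart.

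f13a1b (ENSDARG00000036893), the other factor XIII A copy, had 4264 and 4101 counts in the mutant and wild-type 3 dpa libraries, and 991 and 1366 counts in the mutant and wild-type uninjured libraries. Its level was 110 CPM (107 to 113) in the mutant and 107 CPM (104 to 110) in wild type at 3 dpa. In uninjured hearts it was 34.6 CPM (32.5 to 36.8) in the mutant and 47.5 CPM (45.0 to 50.1) in wild type. The 3 dpa libraries were indistinguishable within counting error and were above both uninjured ones, of which the mutant was the lower. f13a1b was 3.17-fold higher at 3 dpa in the mutant (2.96 to 3.40) and 2.25-fold higher in wild type (2.12 to 2.40). The log2 ratios were 1.66 and 1.17, and their difference was 0.49 (0.36 to 0.63), short of the threshold of 1. In uninjured hearts the log2 ratio of mutant to wild type was -0.46 (-0.58 to -0.34), and at 3 dpa it was 0.04 (-0.02 to 0.10).

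Set against each other, the copies traded places in the counts. f13a1b took 85.7% of the counts of the pair in the mutant 3 dpa library (Wilson 95% interval, 84.7 to 86.7%) and 79.7% in the wild-type 3 dpa library (78.6 to 80.8%). In uninjured hearts it took 14.9% in the mutant (14.1 to 15.8%) and 15.4% in wild type (14.6 to 16.1%). The pair together had 128, 134, 232 and 309 CPM in the mutant 3 dpa, wild-type 3 dpa, mutant uninjured and wild-type uninjured libraries. The sum was thus lower at 3 dpa, with a log2 ratio of -0.86 in the mutant (-0.91 to -0.81) and one between -1.25 and -1.15 in wild type. A share compares counts and not molecules, since the transcripts may differ in length, but that difference is the same in every library.

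The other ID named F13A1, ENSDARG00000094832, was far lower, with 15, 38, 154 and 135 counts in the mutant 3 dpa, wild-type 3 dpa, mutant uninjured and wild-type uninjured libraries. It was also called lower with injury, with log2 ratios of -3.61 in the mutant (-4.67 to -3.03) and -2.18 in wild type (-2.80 to -1.71). Unlike that of the first ID, its difference between the genotypes was called, at -1.43 (-2.31 to -0.55). At 3 dpa it was called lower in the mutant than in wild type, with a log2 ratio of -1.24 (-2.33 to -0.46) on 15 and 38 counts. The RefSeq gene list of assembly GRCz12tu places f13a1a.1 and f13a1a.2 on the same chromosome, with 1 protein-coding gene starting between them. How reads that match both copies were counted is not given in the sources used here, so the split between the 2 IDs is uncertain.

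**Figure D2:**
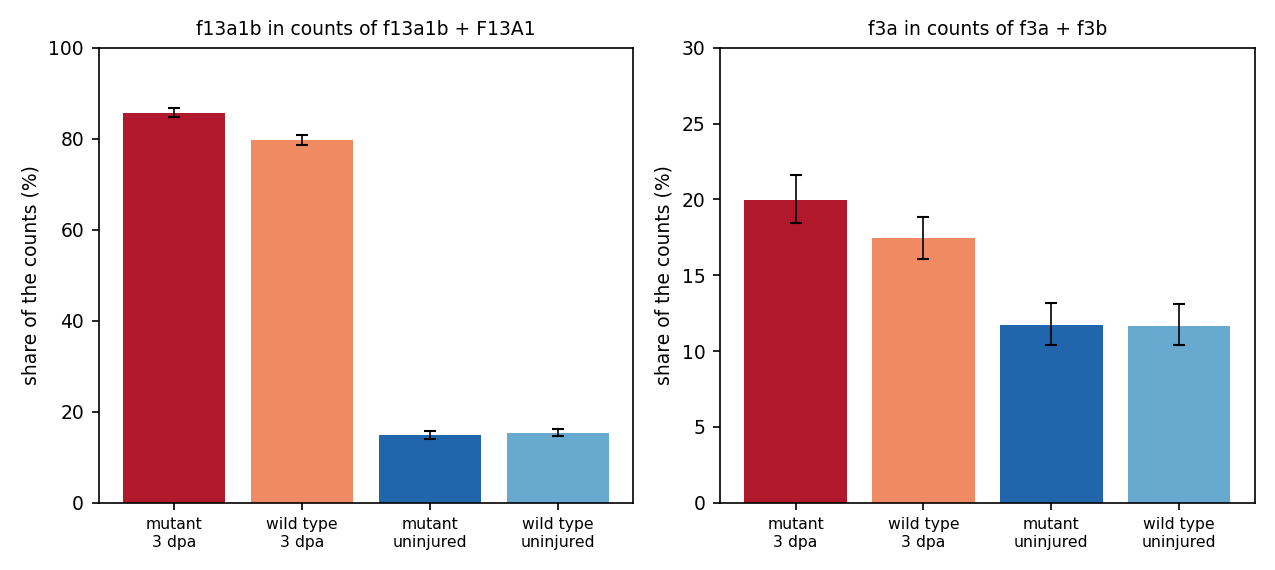
Share of f13a1b in the summed counts of f13a1b and F13A1 (ENSDARG00000045453; left, axis 0 to 100%) and of f3a in the summed counts of f3a and f3b (right, axis 0 to 30%), by library, with Wilson 95% intervals. The f13a1b share is about 80% or more at 3 dpa and about 15% in uninjured hearts, and the f3a share lies between 17.4 and 20.0% at 3 dpa against 11.7% in both uninjured libraries.

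The marker lists of cells that could carry factor XIII A moved as follows. In mammals F13A1 is expressed by macrophages and by the platelet lineage. The 20 tested macrophage genes had median injury log2 ratios of 1.75 in the mutant and 1.92 in wild type, and 15 were called higher and 0 lower in each. Their summed level was 1619, 1727, 663 and 634 CPM in the mutant 3 dpa, wild-type 3 dpa, mutant uninjured and wild-type uninjured libraries. The f13a1b level was high in the same 2 libraries as this list, and the F13A1 level was low in them. The thrombocyte list, for the platelet lineage, had medians of 0.20 in the mutant and 0.09 in wild type. The fibroblast and epicardium list was also high in those 2 libraries, at 21638, 23183, 3481 and 3583 CPM in the same order. So were the neutrophil and erythroid lists, so this pattern was not particular to the macrophage list. Cardiomyocyte genes had medians of -1.16 in the mutant and -0.88 in wild type, and 9 and 4 of 14 were called lower. Over all tested genes, 14.7% were called higher with injury and 5.62% lower in the mutant, and 13.2% and 6.76% in wild type. The part that the cells of these lists have in the 2 factor XIII A results was not tested.

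The genes of tissue factor, the cellular trigger of clotting, were not called by their log2 ratios in any comparison. f3a (ENSDARG00000099124) had 496 and 491 counts in the mutant and wild-type 3 dpa libraries, and 245 and 252 counts in the mutant and wild-type uninjured libraries. The genotypes were within counting error of each other in both states. At 3 dpa f3a was at 12.8 CPM in the mutant (11.7 to 13.9) and 12.8 CPM in wild type (11.7 to 14.0). In uninjured hearts it was at 8.55 CPM in the mutant (7.54 to 9.69) and 8.76 CPM in wild type (7.74 to 9.91). Its injury log2 ratios were 0.58 in the mutant (0.36 to 0.81) and 0.54 in wild type (0.33 to 0.77), above 0 beyond counting error and short of the threshold.

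f3b (ENSDARG00000005673) had 1985 and 2327 counts in the mutant and wild-type 3 dpa libraries, and 1850 and 1909 counts in the mutant and wild-type uninjured libraries. The levels were 51.1 CPM (48.9 to 53.4), 60.7 CPM (58.3 to 63.2), 64.6 CPM (61.7 to 67.6) and 66.4 CPM (63.5 to 69.4) in that order of libraries. The mutant 3 dpa library stood below the other 3, whose neighbouring intervals overlapped. At 3 dpa the log2 ratio of mutant to wild type was -0.25 (-0.34 to -0.16). The injury log2 ratio was -0.34 in the mutant (-0.43 to -0.25) and -0.13 in wild type (-0.22 to -0.04). When libraries were scaled by their totals, the mutant value came to -0.02 and the wild-type value turned to 0.14. Of the counts of the 2 tissue factor genes, f3a took 20.0% in the mutant and 17.4% in wild type at 3 dpa, and 11.7% in each uninjured library.

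The von Willebrand factor gene was between 466 and 687 CPM in the 4 libraries. vwf (ENSDARG00000077231) had 23415 and 17856 counts in the mutant and wild-type 3 dpa libraries, and 18272 and 19761 counts in the mutant and wild-type uninjured libraries. In CPM it stood at 603 (595 to 611) and 466 (459 to 473) in the mutant and wild type at 3 dpa, and at 638 (628 to 647) and 687 (678 to 697) in the mutant and wild type uninjured. The wild-type 3 dpa library was the lowest of the 4. The injury log2 ratio was -0.08 in the mutant (-0.11 to -0.05), a sign that turned to 0.23 under scaling by library totals, and -0.56 in wild type (-0.59 to -0.53). Their difference was 0.48 (0.44 to 0.52), and the log2 ratio of mutant to wild type at 3 dpa was 0.37 (0.34 to 0.40). None of these was called.

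Endothelial markers are given beside vwf, since endothelial and endocardial cells make the protein. The 19 genes of that list had median injury log2 ratios of -0.44 in the mutant and -0.48 in wild type, with 1 called higher in each and 0 and 1 called lower. Their summed level was 1155 and 1049 CPM in the mutant and wild type at 3 dpa, and 1631 and 1424 CPM in the mutant and wild type uninjured. The shares over all tested genes were 14.7% higher and 5.62% lower with injury in the mutant, and 13.2% and 6.76% in wild type. Whether vwf differed per endothelial cell was not tested.

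**Figure D3:**
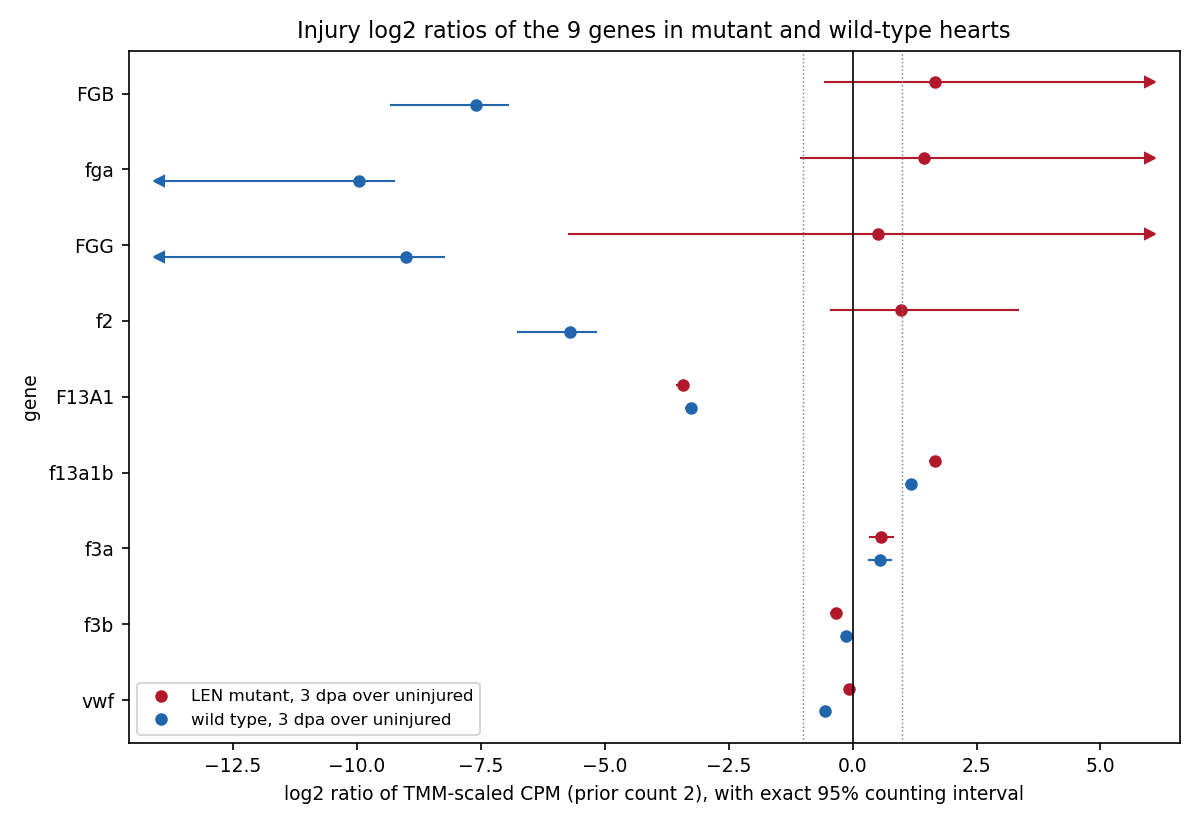
Injury log2 ratio (3 dpa over uninjured, TMM-scaled CPM with a prior count of 2) of each of the 9 genes in the LEN mutant (upper point of each pair) and in wild type (lower point), with the exact 95% counting interval; arrows mark intervals that run past the axis, and dotted lines mark log2 ratios of -1 and 1. FGB, fga, FGG and f2 are far below 0 in wild type, while their mutant intervals include 0, and F13A1 and f13a1b lie on the same side of 0 in both genotypes.

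The fibrinogen genes were present at high level in 1 library. fga (ENSDARG00000020741) had 4, 0, 0 and 1697 counts in the mutant 3 dpa, wild-type 3 dpa, mutant uninjured and wild-type uninjured libraries. FGB (ENSDARG00000008969) had 5, 7, 0 and 1348 counts in the same order, and FGG (ENSDARG00000037281) had 1, 1, 0 and 1265. The 3 chains together had 10, 8, 0 and 4310 counts, so the wild-type uninjured library held nearly all of them. A count of 0 allows up to 3 counts, which is 0.0782 CPM in wild type at 3 dpa and 0.105 CPM in the mutant uninjured.

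f2 (ENSDARG00000036041), the prothrombin gene, followed the same order with 13, 15, 4 and 677 counts. In the wild-type injury comparison f2 was 60.2-fold lower at 3 dpa (36.2 to 108), and FGB was 257-fold lower (124 to 640). fga was at least 754-fold lower against a floor of 3 counts at 3 dpa, a bound that leaves out counting error in the uninjured library. The exact interval of its log2 ratio ended at -9.26. FGG, with 1 count at 3 dpa, was 1686-fold lower (302 to 66657). Between the uninjured libraries f2 was 169-fold lower in the mutant than in wild type (65.6 to 621). Against the same floor of 3 counts, fga, FGB and FGG were at least 564-fold, 448-fold and 420-fold lower in the mutant, and the exact intervals of their log2 ratios ended at -8.84, -8.51 and -8.41.

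In LEN mutant hearts, which do not rest on the wild-type uninjured library, none of the 4 genes was called. The injury log2 ratios there were 0.99 for f2 (-0.43 to 3.34), 1.45 for fga, 1.66 for FGB and 0.52 for FGG, and the intervals of all 4 included 0. Summed, the 3 fibrinogen genes had 10 counts at 3 dpa and 0 uninjured, a log2 ratio of 2.41 with an interval from 0.73 upward. With f2 added, the counts were 23 and 4, at 1.71 (0.54 to 4.08). These sums were thus above 0 beyond counting error, on few counts. With 0 counts in the mutant uninjured library, the prior count sets the fibrinogen values: prior counts of 0.5 and 10 gave 2.99 and 0.43 for fga, 3.27 and 0.52 for FGB, and 1.45 and 0.12 for FGG. Between mutant and wild type at 3 dpa the intervals of the 4 genes also included 0, on counts of at most 15 in a library. With the mutant uninjured library as baseline for the wild-type 3 dpa library, which crosses genotype, f2 had a log2 ratio of 1.18, fga 0.00, FGB 2.03 and FGG 0.52, in place of -5.71, -9.96, -7.60 and -9.01. FGB was then called higher, on 7 counts against 0. F13A1 and f13a1b kept their calls under that baseline, at -2.86 and 1.63.

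The liver marker list had the pattern of these 4 genes. Its 18 genes that were at least 10-fold higher in the wild-type uninjured library than in every other library had at most 31 counts in any other library. They include apoa1b, an apolipoprotein of high-density lipoprotein, with 6, 3, 7 and 8972 counts, and apoa2, another apolipoprotein, with 6, 5, 1 and 5504 counts, in the mutant 3 dpa, wild-type 3 dpa, mutant uninjured and wild-type uninjured libraries. The markers serpina1 and ahsg2 were at 0 in the first 3 libraries, while wild type uninjured had 472 and 269. The list's summed level was 706, 659, 559 and 2095 CPM in that order of libraries, and 5, 6, 5 and 0 of its 21 genes were at 0. The exceptions were tfa, RBP4 and c3a.1. The transferrin gene tfa had 16268, 14879, 1151 and 10356 counts, and the retinol-binding protein gene RBP4 had 9755, 9008, 14631 and 15976 counts. Of the 20 tested liver genes, 19 were called lower with injury in wild type, and 3 were called higher and 4 lower in the mutant. Of those 19, 16 passed the filter only through the wild-type uninjured library, which fixed their direction. The shares over all tested genes were 14.7% higher and 5.62% lower with injury in the mutant, and 13.2% and 6.76% in wild type. The part of liver RNA in the fibrinogen and prothrombin values was not tested.

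**Figure D4:**
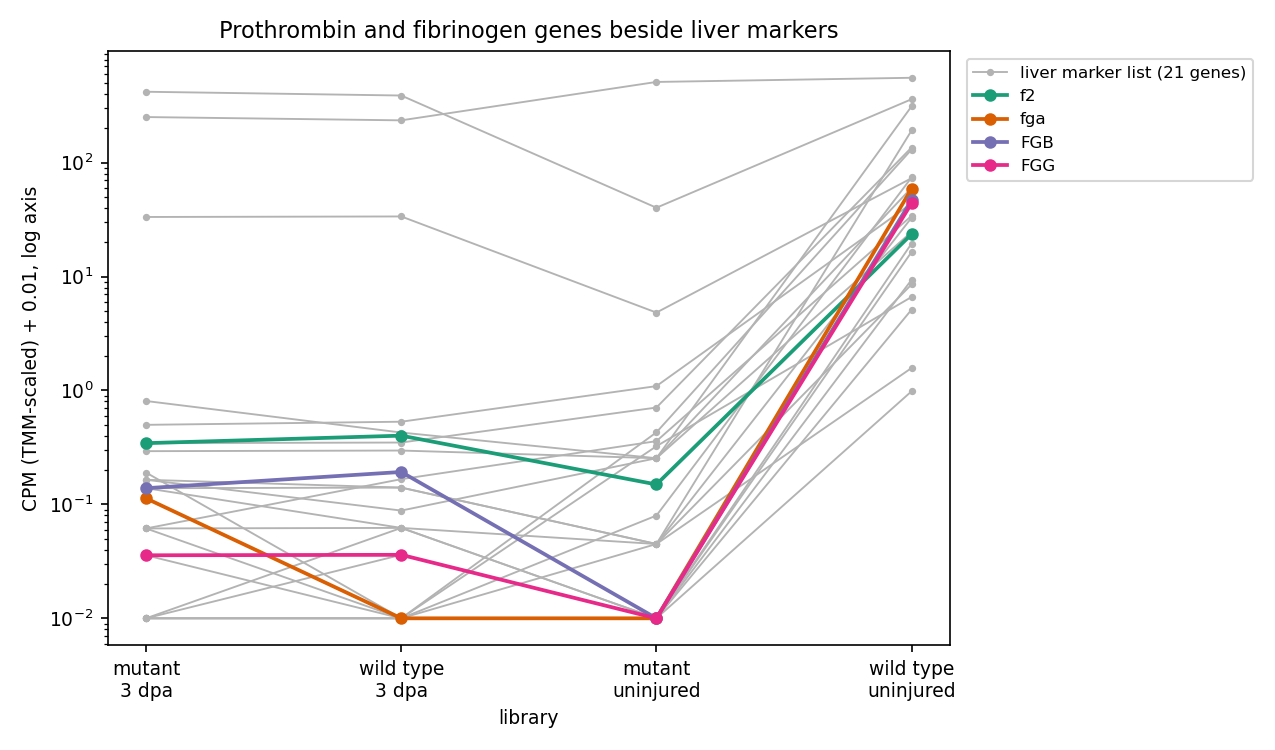
Levels (TMM-scaled CPM plus 0.01, log axis) of f2, fga, FGB and FGG in colour and of the 21 liver marker genes in grey, by library; lines join the values of a gene and do not stand for time. The 4 coagulation genes and 18 of the 21 liver markers are high in the wild-type uninjured library only, and 3 markers (tfa, RBP4 and c3a.1) are above 1 CPM in every library.

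The rest of the clotting cascade was read from a list of cofactors, proteases and anticoagulants, of which 21 of 26 IDs were tested. In the mutant 2 were called higher with injury and 0 lower, with a median log2 ratio of 0.00, against 0.04 over all tested genes. That median is the value of F9, which had 0 counts in both mutant libraries. Under library totals, with 20 list genes tested, the median was 0.28, against 0.36 over all tested genes. In wild type 2 were called higher and 8 lower, with a median of -0.80, against 0.03 over all tested genes. The shares over all tested genes were 14.7% higher and 5.62% lower in the mutant, and 13.2% and 6.76% in wild type. Of the 8 lower list genes, F7 (ENSDARG00000075827), F9, SERPIND1 and serpina10b passed the filter only through the wild-type uninjured library. The direction of these 4 was fixed by how they entered. With a filter of 5 CPM, 3 of 16 tested list genes were called lower, where 650 of all 12281 tested genes were. The 3 were f5, SERPINC1 and proza. Of these, f5 and SERPINC1 reached 5 CPM only in the wild-type uninjured library, so their direction was likewise fixed by how they entered. VKORC1 and LMAN1 were the higher genes in both genotypes, and scaling by library totals added GGCX and MCFD2 in the mutant and thbd in wild type. VKORC1, which recycles the vitamin K needed to make several clotting proteases, had 209 and 203 counts in the mutant and wild type at 3 dpa, and 29 and 40 counts in the mutant and wild type uninjured. Its log2 ratios were 2.34 in the mutant (1.85 to 3.02) and 1.88 in wild type (1.43 to 2.46). LMAN1, a cargo receptor that carries factors V and VIII out of the endoplasmic reticulum, had log2 ratios of 1.29 (1.15 to 1.45) and 1.38 (1.24 to 1.53).

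Of the 8 genes of that list called lower in wild type, F7 (ENSDARG00000075827), F9 and SERPIND1 were at least 10-fold higher in the wild-type uninjured library than in every other one. The 4 genes of largest ratio with at least 50 counts in a library included SERPIND1, which encodes heparin cofactor II, at -5.86 (-12.87 to -5.05). The others were this F7 ID at -5.24 (-12.24 to -4.41), SERPINC1 at -3.32 (-3.69 to -3.02) and serpina10b at -2.92 (-3.84 to -2.36). F7 is the symbol of a protease that works with tissue factor, and the name table gives it to 3 IDs. Which of them encodes that protease is not known here. Another of them, ENSDARG00000034862, was also called lower in wild type, at -1.61 (-2.25 to -1.11). SERPINC1 encodes antithrombin, the main inhibitor of thrombin, and had 107, 86, 75 and 658 counts in the mutant 3 dpa, wild-type 3 dpa, mutant uninjured and wild-type uninjured libraries. In the mutant its log2 ratio was 0.07 (-0.37 to 0.52). Under the mutant uninjured baseline, 1 gene of the list was called lower with injury in wild type in place of 8, and the median was -0.22. Over all 16509 tested genes, 2477 were called higher and 1399 lower under that baseline. F10, the protease that forms thrombin, was not called: it had 11630 and 12591 counts in the mutant and wild type at 3 dpa, and 10370 and 12566 in the mutant and wild type uninjured.

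Genes of fibrinolysis, the removal of fibrin, were called in both directions. Of 15 tested genes, 5 were called higher with injury in each genotype, and 2 were called lower in the mutant and 5 in wild type, where over all genes 14.7% were called higher and 5.62% lower in the mutant, and 13.2% and 6.76% in wild type. Of the 5, PLG, serpinf2a, serpinf2b and CPB2 passed the filter only through the wild-type uninjured library. The list medians were 0.27 in the mutant and 0.07 in wild type. Under upper-quartile factors the wild-type median was -0.04, against -0.08 over all tested genes. With the mutant uninjured baseline, 1 gene was called lower in wild type in place of 5, where 1399 of all 16509 tested genes were.

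The urokinase-type plasminogen activator gene plaua had 208 and 174 counts in the mutant and wild type at 3 dpa, and 5 and 20 counts in the mutant and wild type uninjured. Its injury log2 ratios were 4.53 (3.69 to 6.58) and 2.61 (2.04 to 3.45), and their difference of 1.93 (0.67 to 3.19) was called. The list's other urokinase ID, PLAU (ENSDARG00000039145), was not called, on 42 and 28 counts at 3 dpa and 32 and 22 uninjured. Its ratios were -0.04 in the mutant (-0.74 to 0.66) and -0.06 in wild type (-0.92 to 0.81). TGM2 (ENSDARG00000074094), a transglutaminase of the same enzyme family as factor XIII A, had 15999 and 16605 counts in the mutant and wild type at 3 dpa, and 1785 and 1870 counts in the mutant and wild type uninjured. Its log2 ratio was 2.72 in the mutant (2.65 to 2.80) and 2.73 in wild type (2.67 to 2.81). HGF (ENSDARG00000079076), a growth factor related in sequence to plasminogen, had 2.71 (1.77 to 4.75) and 1.41 (0.32 to 3.22). The difference of these 2 injury log2 ratios was not called. At 3 dpa, however, HGF was called higher in the mutant than in wild type, on 57 and 25 counts. The interval of that log2 ratio was 0.47 to 1.91, and 2.24% of all tested genes were called higher there. With a prior count of 10, 0 genes of the list were called higher at 3 dpa, so the HGF call was lost. With a prior count of 0.5 and under the other scalings, 1 was. With a filter of 5 CPM, HGF was not tested, as it reached at most 1.47 CPM. The list's other HGF gene, hgfa, had 151 and 83 counts in the mutant and wild type at 3 dpa, and 119 and 117 uninjured. Its injury log2 ratios of -0.09 in the mutant (-0.45 to 0.26) and -0.89 in wild type (-1.33 to -0.49) were not called.

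The tissue-type plasminogen activator gene PLAT had 1436 and 1283 counts in the mutant and wild type at 3 dpa, and 835 and 535 counts in the mutant and wild type uninjured. Its log2 ratios of 0.34 in the mutant and 0.85 in wild type were not called. PLG, the plasminogen gene, had 3, 0, 1 and 617 counts in the mutant 3 dpa, wild-type 3 dpa, mutant uninjured and wild-type uninjured libraries. serpinf2a and serpinf2b, which encode inhibitors of plasmin, and CPB2, a carboxypeptidase that slows clot removal, were highest in the same library, at 125, 232 and 52 counts. These 4 genes were at least 10-fold higher in the wild-type uninjured library than in every other one.

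A list of thrombocyte genes is given for the cells that fish clots recruit. How far its genes are particular to thrombocytes was not tested. None of the 9 coagulation genes is on that list. The integrin gene itga2b, which encodes CD41, had 638 and 553 counts in the mutant and wild type at 3 dpa, and 453 and 399 counts in the mutant and wild type uninjured. Its injury log2 ratio was 0.06 in the mutant (-0.12 to 0.23) and 0.06 in wild type (-0.13 to 0.25). gp9, a subunit of the von Willebrand factor receptor, had 888, 1083, 933 and 966 counts in the mutant 3 dpa, wild-type 3 dpa, mutant uninjured and wild-type uninjured libraries, with log2 ratios of -0.51 (-0.64 to -0.38) and -0.25 (-0.38 to -0.12). Both markers were thus detected in every library, and neither was called.

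Of 26 tested thrombocyte genes, 5 were called higher with injury in each genotype, and 0 were called lower in the mutant and 2 in wild type. The shares over all genes were 14.7% higher and 5.62% lower in the mutant, and 13.2% and 6.76% in wild type. Of the 2 lower genes, adamts13 passed the filter only through the wild-type uninjured library, so its direction was fixed by how it entered. With the mutant uninjured baseline, 3 were called higher and 0 lower in wild type, where 2477 and 1399 of all 16509 tested genes were. The list medians were 0.20 in the mutant and 0.09 in wild type. Under upper-quartile factors the wild-type median was -0.02, against -0.08 over all tested genes. P2RY12, a receptor for ADP, had 94 and 73 counts in the mutant and wild type at 3 dpa and 14 and 11 counts in the mutant and wild type uninjured. Its log2 ratios were 2.18 in the mutant (1.49 to 3.23) and 2.15 in wild type (1.39 to 3.38). FERMT3 (ENSDARG00000079267), an integrin activator of blood cells, had 2.32 and 1.94, and the other FERMT3 ID (ENSDARG00000030938) had 1.21 and 1.17. alox12, a lipoxygenase, had 1.25 and 1.51. The summed level of the list was 661 and 687 CPM in the mutant and wild type at 3 dpa, and 732 and 723 CPM in the mutant and wild type uninjured.

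**Figure D5:**
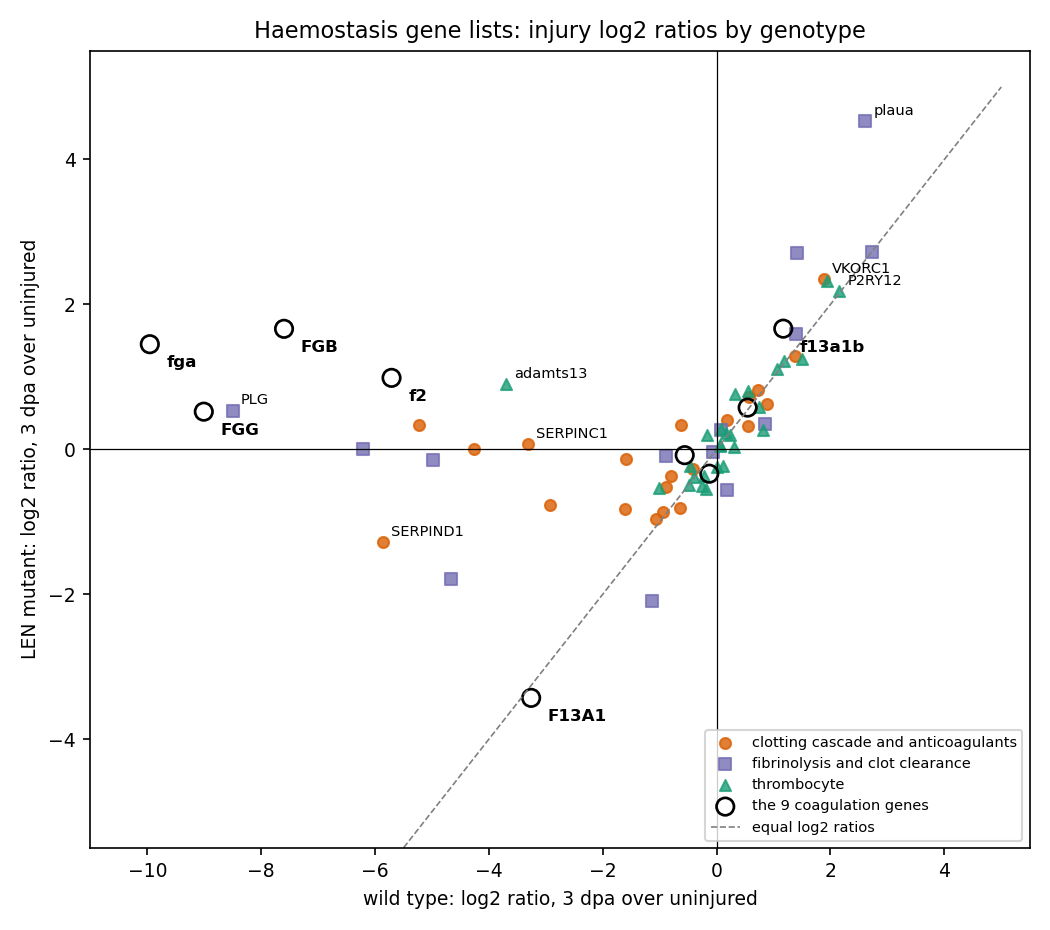
Injury log2 ratio (3 dpa over uninjured) in wild type (horizontal axis) against the LEN mutant (vertical axis) for genes of the clotting cascade, fibrinolysis and thrombocyte lists, with the 9 coagulation genes as open circles; the dashed line marks equal ratios. The labelled genes plaua, VKORC1, P2RY12 and f13a1b lie above 1 on both axes, F13A1 lies below -3 on both, and PLG, fga, FGG, FGB and f2 lie far below 0 in wild type and above 0 in the mutant.

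The remaining marker lists give the other cells of the hearts. The 7 tested erythroid genes had median injury log2 ratios of 0.66 in the mutant and 0.75 in wild type, with 3 and 2 called higher, and median log2 ratios of mutant to wild type of -0.25 at 3 dpa and -0.51 uninjured, with 0 of 7 called. Their summed level was 7495 and 9717 CPM in the mutant and wild type at 3 dpa, and 3370 and 4969 CPM in the mutant and wild type uninjured. The 8 neutrophil genes had medians of 1.76 and 0.84, with 6 and 3 called higher and 0 and 1 called lower. The 14 fibroblast and epicardium genes had medians of 2.18 and 2.33, with 11 and 12 called higher. The 11 housekeeping genes had medians of 0.11 and -0.01, with 1 called higher and 1 lower in each genotype. Over all tested genes, 14.7% were called higher with injury and 5.62% lower in the mutant, and 13.2% and 6.76% in wild type. For genotype, 3.00% were called at 3 dpa and 8.01% in uninjured hearts. The part of the cells of these lists in the values of the 9 coagulation genes was not tested.

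The genes whose levels followed each coagulation gene most closely over the 4 libraries were sought among 9769 genes with at least 10 CPM in some library. The measure was the Euclidean distance between log2 CPM values centred on each gene's mean. Among the closest to f13a1b were POGLUT3 and SYT11, at distances of 0.08 and 0.09. POGLUT3 had 607 and 626 counts in the mutant and wild type at 3 dpa, and 146 and 197 counts in the mutant and wild type uninjured. No gene was as close to F13A1, for which nme2b.2, HHATL and gsdf stood at 1.07, 1.15 and 1.24.

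For the liver-made genes the nearest were mostly genes of liver proteins. The neighbours named for them reached 10 CPM only through the wild-type uninjured library, where the liver-made genes are also high. Their likeness was thus fixed by how both entered and lends no support. fga was nearest to fetub (0.87), apoa2 (1.17) and hpxa (1.21), and f2 to fbp1b (0.48), ITIH2 (0.75) and serping1 (0.94). FGG was nearest to itih3b.2 (0.44), UCP1 (0.56) and fetub (0.91), and FGB to UCP1 (0.80), fetub (1.16) and, slightly farther, APOB. f3a was closest to EHD1 (0.03), CEMIP2 (0.03) and PTP4A1 (0.03), f3b to pbx1a (0.02), RTCA (0.03) and ZNF622 (0.03), and vwf to stk11ip (0.07), ZNF644 (0.09) and BRCC3 (0.09). With 4 libraries many genes lie this close to a nearly flat profile, so the distances are a description.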

How the data were processed

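The authors deposited a table of counts for each of 4 libraries, with 1 whole number per Ensembl gene and no normalization. Per the file headers, each came from 1 file of first reads of lane 8. HISAT2, featureCounts and the build GRCz11 are named, per the submitters' processing notes. Strand, annotation version and the handling of multi-mapping reads are not given in the sources used here. Symbols came from a name table that covers 29201 IDs. No coordinates are given, because the RefSeq list used for gene order is of another assembly (GRCz12tu).

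Libraries were scaled by TMM in edgeR 4.0.16 (R 4.3.3) over all 4 libraries. Genes with at least 1 scaled CPM in a library (16509) were tested, meaning that calls were made over all of them. Other computation used Python 3.11.15 with numpy 2.4.6, scipy 1.17.1, pandas 2.3.3 and matplotlib 3.10.9. With 1 library per group, a model with a term for every group leaves no residual degrees of freedom. An additive model of genotype plus injury leaves 1, and was fitted in edgeR and DESeq2 1.42.0 as an alternative chosen after seeing the data. The difference of injury log2 ratios has a delta-method 95% interval, and the calling steps were tested on simulated data. The genes and lists were chosen with earlier results of these data known. Named genes were the 9 coagulation genes, fixed examples (F10, SERPINC1, PLG, itga2b, gp9, PLAT), the 4 largest called ratios per haemostasis list and injury comparison with at least 50 counts, and the most abundant genes of the marker lists, of which some are given only within list sums and some are not reported here. Other genes named were chosen after their values were seen. List symbols were matched with case ignored, or without the copy suffix where only that occurred.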

Additional observations from a re-analysis of the deposited data

Results flagged for a closer look

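The injury log2 ratios of 4 genes pointed in opposite directions in the LEN mutant and in wild type, on 1 library per group, and the difference was not tested against variation between hearts. The difference, mutant minus wild type, was 6.70 for f2, 11.41 for fga, 9.26 for FGB and 9.53 for FGG. The prior count sets much of the size where a library is at 0: with prior counts of 0.5 and 10, the difference was 7.04 and 5.65 for f2, 14.94 and 8.07 for fga, 11.16 and 7.14 for FGB, and 11.52 and 7.22 for FGG. For each gene alone the mutant counting interval included 0, while that of the summed counts of the 4 did not (0.54 to 4.08). The wild-type ratio rests on the wild-type uninjured library, in which the liver marker list was also high.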

How the results depend on the processing

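No paired analysis was possible because the labels give no replicate numbers that groups share, and with 1 library per group no replicate could be left out. The additive model of genotype plus injury, chosen after seeing the data, assumes the same injury effect in both genotypes. At an adjusted p under 0.05 and with no minimum ratio, edgeR's quasi-likelihood test called 7559 of 16509 genes for injury and 538 for genotype. Of the 9 coagulation genes, 7 were called for injury and 3 for genotype. Those called for genotype were fga, FGB and FGG. Those called for injury were these, f2, F13A1 (ENSDARG00000045453), f13a1b and f3a. By its log2 ratios f3a was short of the threshold in both genotypes. The liver-made genes fga, FGB, FGG and f2 passed the filter only through the wild-type uninjured library, so their calls rest on it. DESeq2 called 5027 and 346 genes, with 3 and 1 of the 9. Its calls for injury were F13A1 (ENSDARG00000045453), f13a1b and vwf, of which vwf was not called by edgeR. Its call for genotype was F13A1 (ENSDARG00000045453), so the 2 tools shared no coagulation gene for genotype. Scaling by library totals put the median of all genes for injury at 0.36 (log2) in the mutant and 0.30 in wild type, against 0.04 and 0.03 under TMM, and the share of higher genes among those called was 91.0% and 83.3%, against 72.3% and 66.2%; with upper-quartile factors that share came to 61.4% and 56.9%. The calls of F13A1 and f13a1b stood under every scaling, filter and prior count tried. With a filter of 5 CPM, which tests fewer genes, 2190 genes were called for injury in the mutant, 2066 for injury in wild type, 604 for genotype in uninjured hearts, 216 for genotype at 3 dpa and 362 for the difference of injury responses. The counts at 1 CPM were 3347, 3303, 1322, 496 and 964. With no filter, 968 genes were called for genotype at 3 dpa. With the mutant uninjured library as baseline, 3 of the 9 coagulation genes were called for injury in wild type in place of 6. Over all 16509 tested genes, 3876 were called under that baseline in place of 3303. The log2 ratios of f2, FGB and FGG then changed sign to 1.18, 2.03 and 0.52, and that of fga became 0.00. Of these only FGB was called, on 7 counts against 0. The cause was not tested. The number of the 9 genes called was the same in every comparison under the other scalings, filters and prior counts. Depth limits fga, FGB, FGG and f2, which had at most 15 counts in 3 libraries.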

Other observations

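f8, the gene of clotting factor VIII, was chosen after its values were seen. It had 108625 and 86890 counts in the mutant and wild type at 3 dpa, and 140130 and 102410 counts in the mutant and wild type uninjured. It was high in every library, unlike the liver-made coagulation genes, and its injury log2 ratios of -0.81 in the mutant and -0.65 in wild type were not called. Other clotting genes were also present outside the wild-type uninjured library. F7 (ENSDARG00000100782) had 1196 and 1290 counts in the mutant and wild type at 3 dpa, and 1616 and 1862 counts in the mutant and wild type uninjured. serpina10a, an inhibitor of clotting proteases, had 5285, 3755, 5599 and 5227 counts in the same order.

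GGCX, the vitamin K-dependent carboxylase, and MCFD2, the partner of LMAN1, had log2 ratios of 0.82 and 0.72 in the mutant and of 0.72 and 0.57 in wild type, above 0 beyond counting error and short of the threshold. Scaled by library totals, the mutant ratios were 1.14 and 1.03 and were called. fgl2b, a fibrinogen-like gene, was called lower with injury in both genotypes, at -2.09 in the mutant and -1.13 in wild type.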
